A study of Rattus norvegicus with 6 samples.

Results

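Potassium channel genes were taken as the genes whose symbol starts with Kcn, followed by letters and a number, so that both the subunits that line the pore and the auxiliary subunits that attach to them were included. Of 15037 named genes on the array, 86 met this rule, through 88 probe sets. The RefSeq rat gene table (assembly GRCr8) holds 94 protein-coding genes of this form, and 8 of them were not analysed here. The cells were rat airway basal cells, the stem cells of the airway lining, grown from tracheal scrapings. The donors were wild-type Sprague Dawley males of 12 weeks with a body weight of 370 ± 39 g. Each of 3 lines was pooled from 3 rats and divided on isolation between 2 media for epithelial cells, BEGM (made for bronchial epithelium) and EpiX. RNA was taken after 8 days, and each culture gave 1 array, so 3 BEGM arrays were compared with 3 EpiX arrays. The question was how the culture medium changes cells that were otherwise alike in strain, sex, age, genotype and days of culture.

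Potassium channels let potassium leave or enter the cell along its gradient, and so set the membrane voltage. In airway epithelium, potassium that the sodium pump brings in leaves through channels of the basolateral membrane, and the voltage this creates drives chloride and fluid out through the apical membrane. Voltage-gated channels (Kcna to Kcnd, Kcnh, Kcnq) open on depolarisation. Inward rectifiers (Kcnj) and tandem pore channels (Kcnk) conduct at rest, and channels of the Kcnm and Kcnn groups open when calcium rises in the cell. The auxiliary Kcnab, Kcne, Kcnip and Kcnmb proteins change how the pores open.

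The arrays were checked against cell type markers first. The basal keratin Krt14 lay between 16.38 and 17.13 on all 6 arrays and the basal cell transcription factor Tp63 between 12.23 and 14.80, on the log2 scale used throughout. Of the same basal list, Krt15 lay at 9.99 to 16.34 and Ngfr at 4.69 to 5.37, near the median of the negative control probe sets. Foxj1, which marks ciliated cells, lay at 3.78 to 4.62, the leukocyte gene Ptprc at 3.78 to 4.14 and the neuronal gene Snap25 at 5.06 to 5.74. Other genes of the same lists were bright. The macrophage gene Cd68 lay at 8.65 to 11.36 on the 6 arrays, the neuronal tubulin Tubb3 at 9.31 to 11.48, and the neuronal hydrolase Uchl1 at 8.72 to 13.15 in BEGM and 4.26 to 4.96 in EpiX. Some secretory, smooth muscle and fibroblast markers were bright too. Scgb1a1 lay at 8.49 to 13.49, Acta2 at 9.49 to 13.0, and Col1a1 reached 12.34 on BEGM array 3. BEGM array 1 lay between the media on the first principal component over all genes, at -7.24, with BEGM arrays 2 and 3 at -54.76 and -73.21 and EpiX between 34.17 and 53.93. The median of 1153 negative control probe sets was 5.11 to 5.29 on the BEGM arrays and 5.24 to 5.56 on the EpiX arrays. The data are of bulk RNA, so fewer cells of a type and less RNA per cell cannot be told apart. The p-values measure the spread between these 6 arrays and take no account of which line a culture came from.

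Most potassium channel genes were dim in both media. The limit of the dimmest 25% of named genes, by the mean over the 6 arrays, was 4.50. It is a rank among genes and not a detection limit, and it lies below the median of the negative control probe sets, 5.24. By their mean over the 6 arrays, 37 of the 86 channel genes (43.0%) lay above 4.50, where 75.0% of all named genes did so. The median channel gene lay at 4.31, and 6 of the 86 (6.98%) lay above 7.03, the median of all named genes. In BEGM 38 channel genes had a mean above the limit and in EpiX 32 did, with 30 above it in both media, 8 in BEGM alone, 2 in EpiX alone and 46 in neither. On all 6 arrays 23 lay above it, and 34 lay below it on every array. Just above the limit stood Kcnd1 and Kcnj14, both at 4.57, and just below it Kcnip2 at 4.48 and Kcnc1 at 4.44. Probe sets differ in how brightly they report a transcript, so a level here is not compared between genes as an amount of RNA.

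**Figure D1:**
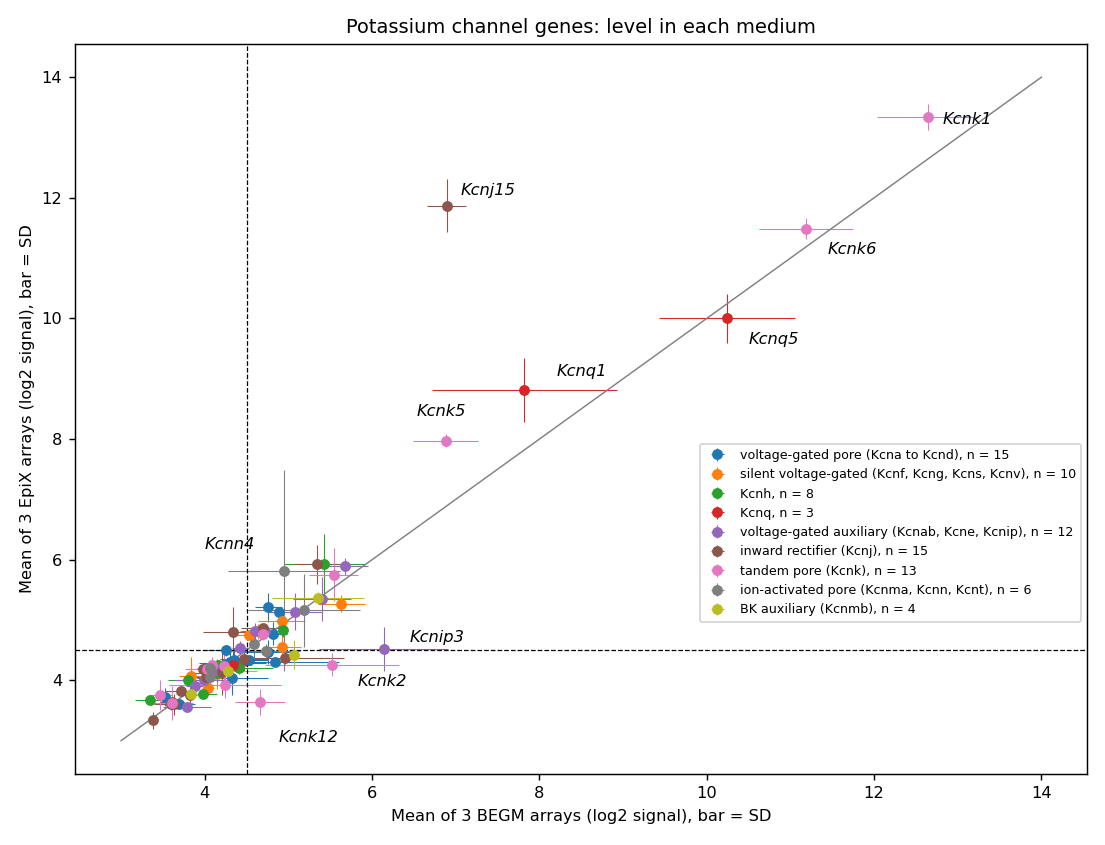
Mean level of each of the 86 potassium channel genes on the 3 BEGM arrays (x axis) and the 3 EpiX arrays (y axis), in log2 signal, with bars of 1 SD and a colour for each subfamily. Dashed lines mark the dim limit of 4.50 and the grey line equal levels; most genes crowd near the limit, and Kcnj15 lies far above the line of equal levels.

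The 6 genes above the median of all named genes were the tandem pore channels Kcnk1, Kcnk6 and Kcnk5, the voltage-gated Kcnq5 and Kcnq1, and the inward rectifier Kcnj15. All but Kcnk5 also exceeded 8.07 by their mean over the 6 arrays, the 90th percentile of the negative control probe sets, which 43.4% of named genes exceeded. Some passed these levels through EpiX: the BEGM means of Kcnj15 (6.89) and Kcnk5 (6.88) were below 7.03, and those of Kcnj15 and Kcnq1 (7.82) were below 8.07. The medium was tested over all 15037 genes with limma, which called 5.78% of them at a Benjamini-Hochberg adjusted p under 0.05, 2.63% higher (395) and 3.15% lower (474) in EpiX. When array medians were set equal, the split was 560 higher and 409 lower. Of the 86 channel genes 2 rose in EpiX (2.33%), Kcnj15 and Kcnk5, and 1 fell (1.16%), Kcnk12, while 83 did not pass. Among the 37 above the dim limit, 2 rose and 0 fell, beside 7.64% called in either direction among all genes above the limit. At an unadjusted p under 0.05 by limma, 8 of the 86 differed (9.30%), beside 3377 of all 15037 genes. All 3 EpiX arrays lay above all 3 BEGM arrays for 7 channel genes (8.14%) and below them for 6 (6.98%), where 13.5% and 14.5% of all genes did so, so that 13 (15.1%) had no overlap beside 28.0% of all genes. With a difference of at least 1 as well, 5 (5.81%) had no overlap beside 7.78% of all genes. The difference between the media was under 1 in size for 81 channel genes and under 0.5 for 74, with a median of 0.01 beside 0.0022 over all genes. The shares called and not overlapping were below those over all genes. The 3 calls are few, and the share called higher (2.33%) was near that over all genes (2.63%). Channel genes were also dimmer, with 43.0% above the dim limit beside 75.0% of all genes. Of the 869 called genes 862 lay above that limit, so the share over all genes is not matched for level.

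**Figure D2:**
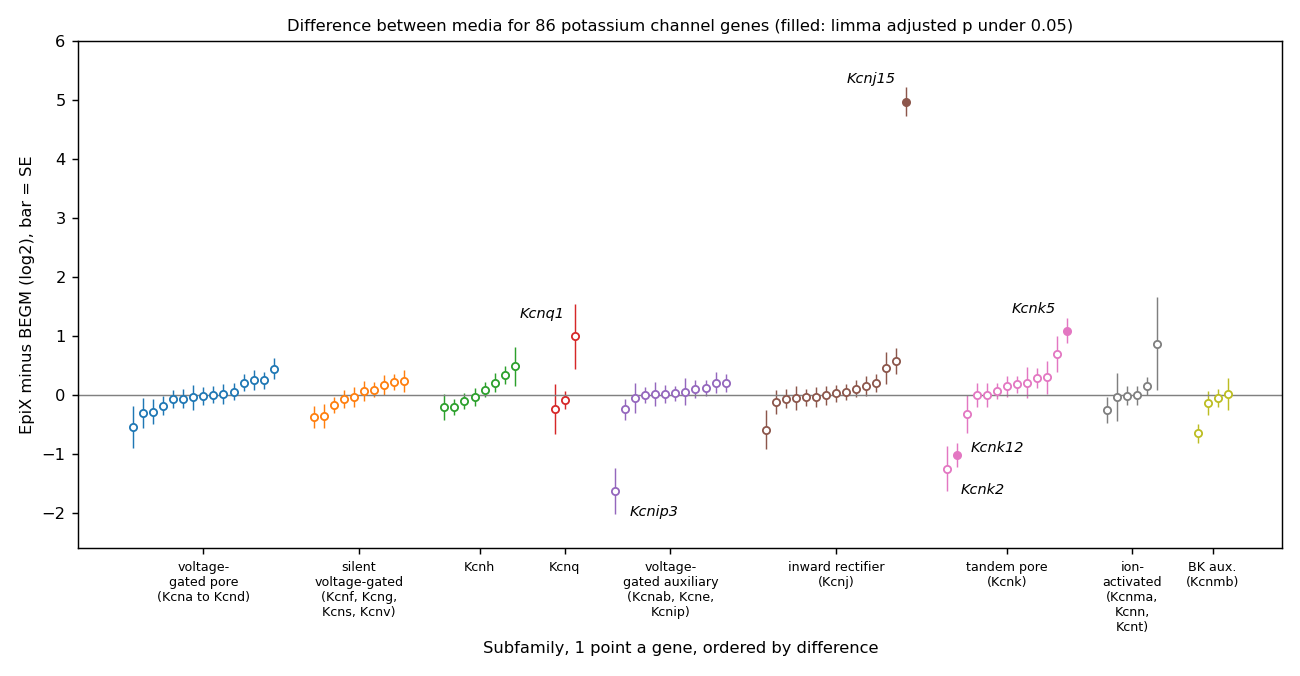
Difference between the media, EpiX minus BEGM on the log2 scale with bars of 1 SE, for the 86 potassium channel genes grouped by subfamily and ordered within it. Filled points passed limma at an adjusted p under 0.05: Kcnj15 at 4.98, Kcnk5 at 1.09 and Kcnk12 at -1.02, while 74 genes differed by less than 0.5.

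Among the inward rectifiers, Kcnj15 stood apart. Kcnj15 encodes a pore subunit found in epithelia such as that of the kidney. BEGM arrays 1, 2 and 3 gave 7.14, 6.85 and 6.68, and EpiX arrays 1, 2 and 3 gave 11.58, 11.65 and 12.37. The groups lay more than 4 units apart, and the BEGM arrays, array 1 included, were close together. The gene rose by 4.98 ± 0.25 (SE, n = 3 per medium; limma adjusted p = 0.000998), from 6.89 ± 0.23 (SD) to 11.87 ± 0.44, which is 31.5-fold if the logarithm has base 2. The BEGM level was below 8.07, the 90th percentile of the negative control probe sets, so it is not clearly above background and the fold is that of the signals. The 95% interval of the difference ran from 4.39 to 5.57. Leaving out any 1 array kept the call, with adjusted p-values from 0.000226 to 0.0183 and differences from 4.73 to 5.12. Without both arrays of number 2, limma called 0 of 15037 genes (1582 at an unadjusted p under 0.05), and Kcnj15 differed by 5.07 with an adjusted p of 0.145.

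Kcnj15 was the 1 inward rectifier of 15 that was called, and its possible partners did not pass. Kcnj16, which joins Kcnj15 or Kcnj10 in mixed channels, lay at 3.51 to 3.91 on all 6 arrays, with a difference of -0.06 ± 0.16, and Kcnj10 lay at 3.19 to 3.46. The classical strong inward rectifier Kcnj2 was at 5.59, 5.05 and 5.37 in BEGM and 6.07, 6.14 and 5.54 in EpiX. Its groups overlapped, and its difference of 0.58 ± 0.22 did not pass (adjusted p = 0.182). Kcnj2 and Kcnj12 were, with Kcnj15, the inward rectifiers above the dim limit in both media, Kcnj8 exceeded it in BEGM alone and Kcnj14 in EpiX alone. Kcnj14 differed by 0.46 ± 0.27 (adjusted p = 0.386), and EpiX array 3 was the highest of the EpiX arrays at 5.29 against 4.57 and 4.54. Another 10 were below the limit in both, among them Kcnj11, the pore of ATP-sensitive channels, and Kcnj3, Kcnj5, Kcnj6 and Kcnj9, the pores opened by G proteins. The median difference over the 15 inward rectifiers was 0.03.

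The promoters are shown for the genes that limma called between the media. Of the 3 genes, Kcnj15 and Kcnk5 were found in the RefSeq promoter table (GRCr8), which gives 250 bases before to 50 after a gene's start, 5′ to 3′ along the gene's strand. Capitals mark matches on either strand to any of 6 motifs. These were TGANTCA for AP-1 factors, GGAATG for TEAD factors, GGGCGG for the GC box, CACGTG for the E-box, the CCAAT box by its own letters, and TATAAA for the TATA box. Kcnj15 lies at chr11:48070700-48070999 on the plus strand and Kcnk5 at chr15:4171375-4171674 on the plus strand.
Kcnj15: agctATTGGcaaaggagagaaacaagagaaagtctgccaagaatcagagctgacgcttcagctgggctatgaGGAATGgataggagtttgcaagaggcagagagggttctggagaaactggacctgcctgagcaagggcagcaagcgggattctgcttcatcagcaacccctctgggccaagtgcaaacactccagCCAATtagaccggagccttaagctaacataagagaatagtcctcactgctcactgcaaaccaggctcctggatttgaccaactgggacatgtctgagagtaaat
Kcnk5: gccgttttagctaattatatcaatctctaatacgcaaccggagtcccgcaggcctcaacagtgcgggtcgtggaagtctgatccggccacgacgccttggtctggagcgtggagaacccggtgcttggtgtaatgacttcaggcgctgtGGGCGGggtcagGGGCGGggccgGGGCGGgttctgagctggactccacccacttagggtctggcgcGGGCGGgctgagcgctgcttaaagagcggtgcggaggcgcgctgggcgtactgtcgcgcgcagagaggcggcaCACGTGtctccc
The windows were unlike. That of Kcnj15 held 1 TEAD match and 2 CCAAT boxes with a GC content of 50.3%, and that of Kcnk5 held 4 GC boxes and 1 E-box with a GC content of 64.7%. Of 33469 promoters of the same length, 14.2% held the TEAD letters, 37.5% a CCAAT box, 33.1% a GC box, 6.42% an E-box, 7.33% the AP-1 letters and 14.2% a TATA box. Of the 61 channel genes with a promoter entry, 14.8% held the TEAD letters, 29.5% a CCAAT box, 52.5% a GC box, 4.92% an E-box, 4.92% the AP-1 letters and 3.28% a TATA box. The median GC content was 61.0% over the promoters of channel genes and 51.7% over all promoters. A channel gene counted once if any of its promoters held a match, whereas the reference shares count each promoter. The 33469 promoters were not limited to genes on the array, so these shares and GC contents are not matched. The motifs were chosen with the called genes known, and a match is a run of letters, not a shown binding site.

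The tandem pore channels held both a rise and a fall. Kcnk5, a background channel that opens when the outside becomes alkaline, was at 7.29, 6.81 and 6.52 in BEGM and 7.95, 8.09 and 7.87 in EpiX. The groups did not overlap, and BEGM array 1 was the nearest to EpiX. Both means, 6.88 in BEGM and 7.97 in EpiX, were below 8.07, the 90th percentile of the negative control probe sets. Neither is thus clearly above background, and the fold is that of the signals. Kcnk5 rose by 1.09 ± 0.21 (SE; adjusted p = 0.0342), or 2.13-fold, with a 95% interval from 0.59 to 1.60. This call held without BEGM array 1 (adjusted p = 0.00515) and ended without BEGM array 2 (0.133), BEGM array 3 (0.0705), EpiX array 1 (0.113), EpiX array 2 (0.154) or EpiX array 3 (0.0805), although the difference stayed between 0.92 and 1.30.

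Kcnk12, a halothane-inhibited type of tandem pore subunit that gives little current on its own, was at 4.54, 4.99 and 4.44 in BEGM and at 3.64, 3.85 and 3.43 in EpiX. The groups did not overlap, but the EpiX arrays all lay in the dimmest 25% and the BEGM mean of 4.66 was barely above its limit. All 6 values lay below the median of the negative control probe sets, which was 5.11 to 5.56 on these arrays. The level in neither medium is thus clearly above background. The Kcnk12 signal fell by 1.02 on the log2 scale (SE 0.20; adjusted p = 0.0348), with a 95% interval from -1.49 to -0.54. The call ended with each array centred on its median (adjusted p = 0.0535), a setting that moved the median of all genes by 0.13. It also ended without BEGM array 2 (0.0978), EpiX array 1 (0.117), EpiX array 2 (0.104) or EpiX array 3 (0.0948), and it was not called without both arrays of number 1 (0.0701), number 2 (0.287) or number 3 (0.105). Kcnk13, its closest relative, lay at 4.04 to 4.38 on all arrays (difference 0.18 ± 0.14).

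The mechanosensitive Kcnk2 had a similar pattern that did not pass. It was at 4.63, 5.72 and 6.20 in BEGM and 4.19, 4.12 and 4.48 in EpiX. The groups did not overlap, yet BEGM array 1 lay close to EpiX. The EpiX values and that of BEGM array 1 lay below the negative control median of their array. The difference was -1.25 ± 0.38 (SE; adjusted p = 0.113), with a 95% interval from -2.15 to -0.35. Without BEGM array 1 it was -1.70 ± 0.21 and passed (adjusted p = 0.0041). It did not pass when any other single array was left out (adjusted p from 0.175 to 0.309). Dropping the BEGM array nearest to EpiX widens a difference by construction. The fit without BEGM array 1 called 2089 of 15037 genes, against 869 with all arrays.

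The weakly rectifying channels Kcnk1 and Kcnk6 were bright in both media. Kcnk1 was at 13.12, 12.84 and 11.97 in BEGM and at 13.41, 13.50 and 13.10 in EpiX. The highest BEGM array touched the EpiX range, and the difference of 0.70 ± 0.30 did not pass (adjusted p = 0.235; 95% interval -0.02 to 1.41). Kcnk6 was at 11.72, 11.26 and 10.61 in BEGM and at 11.69, 11.33 and 11.44 in EpiX, a difference of 0.30 ± 0.28 (adjusted p = 0.606). For both genes BEGM array 3 was the lowest of all arrays. Kcnk4, another mechanosensitive channel, and Kcnk18 were the other tandem pore genes above the dim limit in both media. Kcnk3, Kcnk9, Kcnk10, Kcnk13, Kcnk15 and Kcnk16 were below it in both, the first pair being the acid-sensitive background channels. Over the 13 tandem pore genes the median difference was 0.15, with 1 rise, 1 fall and 11 that did not pass.

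**Figure D3:**
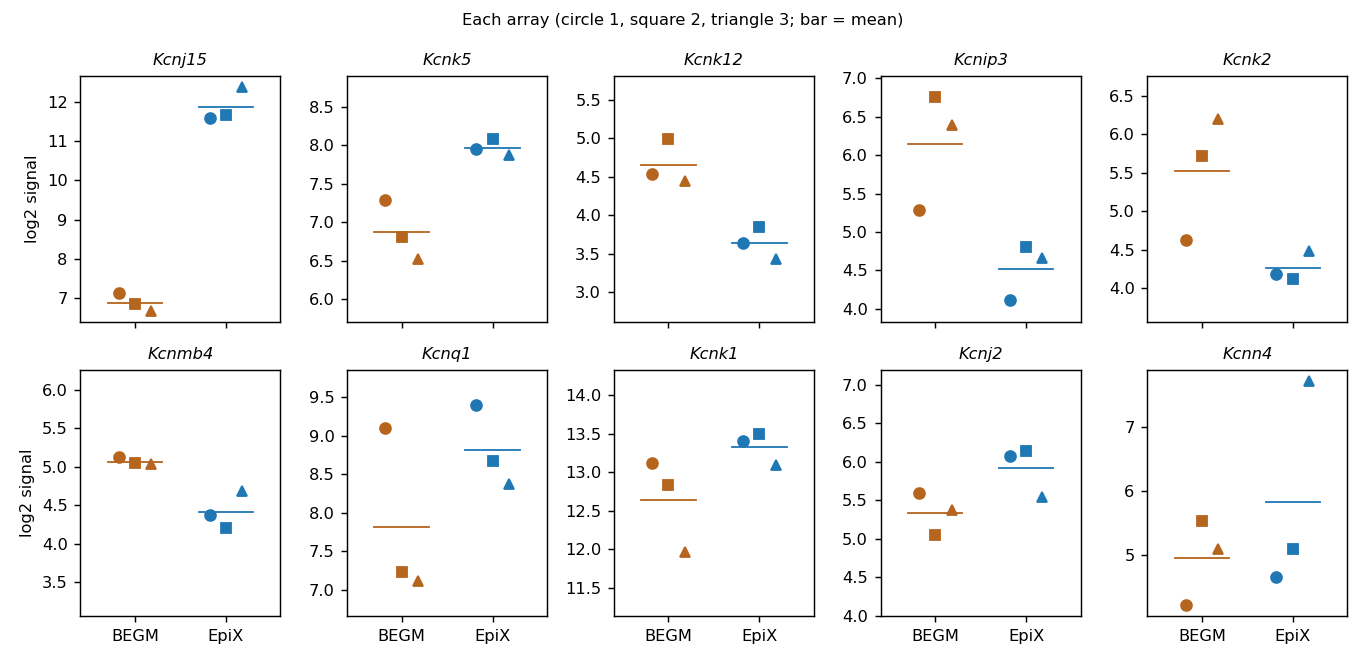
Log2 signal of 10 potassium channel genes on each array, BEGM in brown and EpiX in blue, with circle, square and triangle for sample numbers 1, 2 and 3 and a bar at the mean of 3 arrays. Each panel has its own axis range; Kcnj15, Kcnk5, Kcnk12, Kcnip3, Kcnk2 and Kcnmb4 show no overlap between media, while on BEGM array 1 Kcnq1 reached 9.10, within the EpiX range.

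Of the 3 measured Kcnq genes, Kcnq1 and Kcnq5 lay above the limit on every array and Kcnq3 below it in both media. Kcnq1 forms the cAMP-regulated basolateral potassium channel of secretory epithelia together with the small subunit Kcne3. Kcnq1 was at 9.10, 7.23 and 7.12 in BEGM and at 9.40, 8.67 and 8.37 in EpiX. BEGM arrays 2 and 3 lay below every EpiX array, whereas BEGM array 1 lay among them. The difference of 1.00 ± 0.55 did not pass (adjusted p = 0.35). Without BEGM array 1 it was 1.64 ± 0.31 and passed (adjusted p = 0.0158). Dropping the BEGM array nearest to EpiX widens a difference by construction. The Kcnq1 difference did not pass when any other single array was left out (adjusted p from 0.354 to 0.638). Kcne3 did not follow, at 5.08, 5.34 and 5.77 in BEGM and 5.58, 4.94 and 5.53 in EpiX (difference -0.05 ± 0.25, adjusted p = 0.944, and 0.08 under both quantile normalization and median centring). Kcnq5, a subunit of the M-current known from neurons, was at 9.46, 10.17 and 11.08 in BEGM and 10.41, 9.58 and 10.02 in EpiX, so that its groups overlapped (difference -0.24 ± 0.42, adjusted p = 0.795).

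The voltage-gated pore subunits Kcna to Kcnd were mostly dim, and 0 of 15 were called by limma. Kcna3, Kcnd2 and Kcnd3 exceeded the limit in both media, Kcna10, Kcnc1 and Kcnd1 in BEGM alone, and 9 in neither. Kcnd3, a pore of rapidly inactivating A-type channels, was at 4.76, 4.60 and 4.92 in BEGM and 5.16, 5.47 and 5.0 in EpiX. Its groups did not overlap, but the difference of 0.45 ± 0.18 did not pass (adjusted p = 0.193). Its relative Kcnd2 differed by 0.25 ± 0.14 (adjusted p = 0.346), also without overlap. All values of Kcnd2, and all of Kcnd3 but that of EpiX array 2, lay below the negative control median of their array. Kcnd1 was at 4.17, 4.66 and 5.68 in BEGM and 4.24 to 4.34 in EpiX, so that its difference of -0.54 ± 0.36 lay in BEGM array 3. Kcnc1 differed by -0.18 ± 0.16 (adjusted p = 0.569).

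Among the 10 electrically silent subunits (Kcnf, Kcng, Kcns and Kcnv), which modify other voltage-gated pores, 0 were called by limma and 5 exceeded the limit in both media. Kcns3 was at 5.49, 5.95 and 5.46 in BEGM and 5.12, 5.40 and 5.28 in EpiX. These groups did not overlap, and the difference of -0.37 ± 0.18 did not pass (adjusted p = 0.297). EpiX arrays 1 and 3 lay below the negative control median of their array. Kcng2 differed by 0.07 ± 0.17. Of the 8 Kcnh genes, Kcnh2 and Kcnh3 exceeded the limit and 0 were called by limma. Kcnh2, the pore of the rapid delayed rectifier of the heart, was at 5.98, 5.26 and 5.06 in BEGM and 6.48, 5.79 and 5.49 in EpiX, with overlapping groups (difference 0.49 ± 0.33, adjusted p = 0.451). Kcnh3 differed by -0.10 ± 0.13 and, with the arrays centred, by 0.03.

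The auxiliary subunits of voltage-gated channels showed 1 large difference that did not pass. Kcnip3 binds calcium, attaches to Kcnd pores and is also known as a transcriptional repressor. It was at 5.28, 6.75 and 6.39 in BEGM and 4.11, 4.80 and 4.66 in EpiX. The groups did not overlap, and array 1 was the lowest in each medium. The EpiX values lay below the negative control median, which was 5.24 to 5.56 on those arrays. The difference was -1.62 ± 0.39 (SE; adjusted p = 0.0622), with a 95% interval from -2.54 to -0.69. Without BEGM array 1 it was -2.05 ± 0.25 and passed (adjusted p = 0.00376). It did not pass when any other single array was left out (adjusted p from 0.128 to 0.189). Leaving out BEGM array 1, the BEGM array nearest to EpiX, widens a difference by construction. The related Kcnip2 differed by 0.12 ± 0.14 and lay at 4.36 to 4.65 by its brightest probe set of 3. Kcnab2, a beta subunit of Kcna channels, was at 5.46, 5.97 and 5.61 in BEGM and 5.93, 6.01 and 5.73 in EpiX, a difference within the spread between arrays (0.21 ± 0.18, adjusted p = 0.556). Of the 12 auxiliary genes 0 were called by limma, and Kcnab2, Kcne1, Kcne3 and Kcne5 exceeded the limit on all 6 arrays.

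Of 6 measured pores that calcium or sodium opens, 0 were called by limma. Kcnn4, the intermediate-conductance channel of the airway basolateral membrane, was at 4.22, 5.54 and 5.10 in BEGM and at 4.65, 5.09 and 7.73 in EpiX. EpiX array 3 was far above the other arrays, which overlapped, and the difference of 0.87 ± 0.79 did not pass (adjusted p = 0.584). The mean level of 4 secretory cell markers was 6.56, 9.73 and 8.80 in BEGM and 8.57, 9.91 and 11.55 in EpiX. It was lowest and highest on the same arrays as Kcnn4, as were Scgb3a1 and Bpifa1. The other secretory markers were not: Scgb1a1 was highest on BEGM array 2 at 13.49 and lowest on EpiX array 1 at 8.49. Scgb3a2 was highest on BEGM array 3 at 6.37. The part of secretory cells in the Kcnn4 difference was not tested. Without EpiX array 3 the sign of the Kcnn4 difference turned, with a difference of -0.08 ± 0.40. The sodium-activated Kcnt1 was highest on array 3 of each medium, at 5.94 in BEGM and 5.86 in EpiX, and differed by -0.03 ± 0.41 (0.08 with quantile normalization and 0.09 with the arrays centred). Kcnma1, the pore of the large-conductance BK channel, was at 4.32, 4.72 and 5.15 in BEGM and 4.37 to 4.59 in EpiX (difference -0.25 ± 0.22, adjusted p = 0.582).

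Of the BK auxiliary subunits, Kcnmb2 exceeded the dim limit on all 6 arrays and Kcnmb4 in BEGM, while Kcnmb1 and Kcnmb3 were below it in both media. Kcnmb4 was at 5.12, 5.05 and 5.03 in BEGM and at 4.37, 4.20 and 4.68 in EpiX. The BEGM arrays were close together and above every EpiX array, yet the difference of -0.65 ± 0.16 did not pass (adjusted p = 0.0685). Every array but BEGM array 1, at 5.12 against 5.11, lay below the negative control median of that array. The Kcnmb4 level in neither medium is thus clearly above background. Kcnmb2 differed by 0.02 ± 0.27, and by -0.04 with array weights. The BK partner Lrrc26, which lets the channel open at resting voltage in epithelia, was at 8.05, 5.35 and 4.98 in BEGM and at 8.32, 7.69 and 7.87 in EpiX. Here BEGM array 1 lay within the EpiX range and the other BEGM arrays far below it. Over all genes, too, BEGM array 1 was the BEGM array nearest to EpiX, at -7.24 on the first principal component. The difference of 1.84 ± 0.76 did not pass (adjusted p = 0.213), and without BEGM array 1 it was 2.80 ± 0.24 and passed (adjusted p = 0.00103). It did not pass when any other single array was left out (adjusted p from 0.321 to 0.465). Leaving out the BEGM array nearest to EpiX widens a difference by construction.

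Kcnk2, Kcnd1 and Kcnma1 were highest on BEGM array 3, as was Kcnj8, the pore of vascular ATP-sensitive channels, at 4.30, 4.89 and 5.70 in BEGM and 4.26 to 4.44 in EpiX (difference -0.59 ± 0.33, adjusted p = 0.353). Kcnj8 and Kcnma1 were chosen after their values were seen. Other channel genes were also highest on BEGM array 3, among them Kcnq5 (11.08), Kcnt1 (5.94), Kcne3 (5.77), Kcng2 (5.23) and Kcna6 (4.69). The share of all genes that were highest on that array was not counted. The mean level of 5 fibroblast markers was also highest there, at 6.26, 7.17 and 9.73 in BEGM and 5.26 to 5.44 in EpiX, with 0 of the 5 called by limma. Their part in these differences was not tested. The mean of 5 smooth muscle markers was 7.68, 8.47 and 8.34 in BEGM and 5.91 to 6.11 in EpiX. Of these, 2 were called lower, Acta2 and Cnn1, while the defining Myh11 and Des lay at 4.09 to 4.87 on all arrays. Over 7 neuron and glia markers, 1 was called lower, Uchl1, and the mean was 6.11, 6.76 and 6.74 in BEGM and 5.11 to 5.38 in EpiX. Of 4 measured basal markers 2 were called higher, Krt15 and Tp63, and of 5 neuroendocrine and tuft markers 1 was called lower, Dclk1. Of 4 secretory markers 0 were called by limma. The groups of Scgb3a1 did not overlap (difference 5.72 ± 1.43, adjusted p = 0.0675), and Bpifa1 differed by 2.08 ± 0.96 (adjusted p = 0.259). The means of Scgb1a1 (difference -0.85 ± 1.43, adjusted p = 0.786) and Scgb3a2 (-0.38 ± 0.18, adjusted p = 0.268) were lower in EpiX. By limma 0 were called of 2 ciliated, 3 ionocyte, 3 leukocyte and 3 endothelial markers.

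Other genes that handle potassium, or kinases and calcium entry genes that act on them, were taken from a list of 45. Of the 36 measured, 1 rose, 3 fell and 32 did not pass. Over all genes 5.78% were called, and 7.64% of those above the dim limit. Atp1b3, a beta subunit of the sodium-potassium pump, was at 12.84, 12.75 and 13.03 in BEGM and 13.96, 13.81 and 13.95 in EpiX. It rose by 1.03 ± 0.14 (SE; adjusted p = 0.0122), with close arrays in each medium. Fxyd5, a regulator of the same pump, was at 11.97, 13.61 and 13.66 in BEGM and 5.63, 6.96 and 7.53 in EpiX. It fell by 6.37 on the log2 scale (SE 0.61; adjusted p = 0.00463), with groups far apart. The EpiX mean of 6.71 was below 8.07, the 90th percentile of the negative control probe sets. The EpiX level is thus not clearly above background, and the size of the fall is that of the signals.

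The kinase Sgk1, which raises the surface number of several ion channels, was at 14.98, 15.14 and 15.89 in BEGM and 13.23, 13.38 and 14.06 in EpiX. It fell by 1.78 (SE 0.31; adjusted p = 0.024), without overlap. The calcium entry channel Orai1, which feeds calcium-activated potassium channels, was at 11.90, 12.47 and 12.11 in BEGM and 11.35, 10.86 and 11.32 in EpiX, and fell by 0.99 (SE 0.21; adjusted p = 0.0458). That call ended with the arrays centred (adjusted p = 0.0628) and in 5 of the 6 fits that left out 1 array, those without BEGM array 2 (0.142), BEGM array 3 (0.0976), EpiX array 1 (0.107), EpiX array 2 (0.167) and EpiX array 3 (0.089). The Atp1b3 call ended without BEGM array 2 (0.0553), EpiX array 1 (0.062) or EpiX array 2 (0.0674), and the Sgk1 call without BEGM array 2 (0.0875), EpiX array 1 (0.0928) or EpiX array 2 (0.119).

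The pump subunit Atp1b1 was at 10.84, 9.08 and 9.07 in BEGM and 11.77, 11.03 and 10.74 in EpiX. BEGM array 1 lay within the EpiX range, and the difference of 1.52 ± 0.52 did not pass (adjusted p = 0.144, and 0.00649 without BEGM array 1). With any other single array left out the adjusted p was 0.185 to 0.36. Slc12a2, the sodium-potassium-chloride cotransporter that loads chloride for secretion, was at 12.46, 11.84 and 11.37 in BEGM and 12.78, 13.14 and 13.78 in EpiX. Its groups did not overlap, and the difference of 1.34 ± 0.35 did not pass (adjusted p = 0.075, and 0.0178 without BEGM array 1). With any other single array left out the adjusted p was 0.111 to 0.216. For Atp1b1 and Slc12a2 alike, BEGM array 1 was the BEGM array nearest to EpiX, and dropping it widens a difference by construction. Of the channel partners, 0 of 12 measured were called by limma, and the sulfonylurea receptors Abcc8 and Abcc9, which complete ATP-sensitive channels, lay at 3.29 to 4.60 on all arrays.

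**Figure D4:**
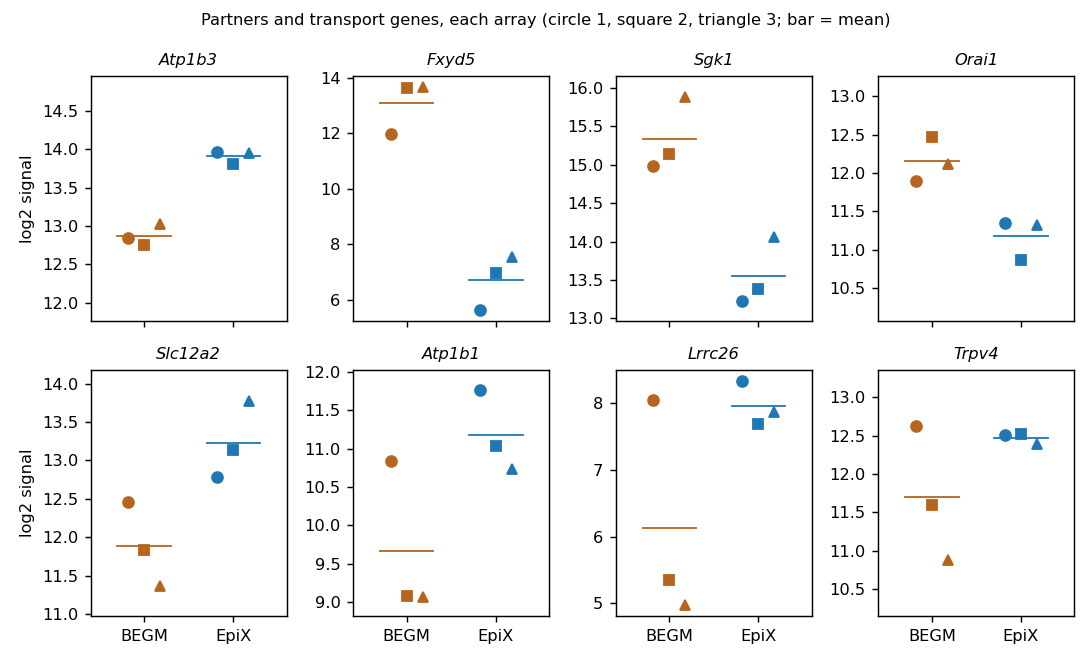
Log2 signal of 8 genes of pumps, cotransport and channel regulation on each array, BEGM in brown and EpiX in blue, with circle, square and triangle for sample numbers 1, 2 and 3 and a bar at the mean of 3 arrays. Each panel has its own axis range; Atp1b3 was higher and Fxyd5, Sgk1 and Orai1 were lower in EpiX, and for Lrrc26 BEGM array 1 at 8.05 lay within the EpiX range, while Atp1b1 there was at 10.84.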

How the data were processed

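Total RNA of 6 cultures was hybridised to rat Affymetrix expression arrays. The deposited values are taken as log2 signals per probe set. Per the submitters' processing notes, Transcriptome Analysis Console was used, while normalization, summary method and log base are not stated there or in the labels. Base 2 was inferred from the range of the values, so folds rest on it. Depth does not apply to arrays, and their number limits the precision.

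Genes were named from the platform annotation. Of 24834 probe sets, 15049 had 1 symbol, 0 had several and 9785 had none. The brightest probe set by mean over the 6 arrays stood for each of 15037 genes. EpiX was compared with BEGM by lmFit and eBayes (limma 3.58.1, R 4.3.3), with medium as the 1 term, Benjamini-Hochberg adjustment over all genes and a threshold of 0.05. The script was tested on simulated data. The labels number samples 1 to 3 in each medium but do not say which line a number stands for. The titles of both arrays of number 1 start with 1 and those of number 2 with 3. Those of number 3 start with no digit. Deviations of same-numbered arrays correlated at 0.32, -0.01 and 0.32. Correlations of 3 pairs cannot decide whether same-numbered arrays came from 1 line. The main fit left the number out, so its p-values ignore any pairing by line. Alternatives used the number as a block.

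The members, gene lists and motifs were chosen with earlier results of these data known. The rule named called members, the 2 brightest of each subfamily, members without overlap and a difference of at least 1, the 2 on each side of the dim limit, called genes of the potassium handling list and 5 marker genes. Other genes given with values, among them Kcnmb4, Kcnj8, Kcnj10, Kcnj16, Kcnk13, Kcnma1, Kcnd3, Lrrc26, Atp1b1, Slc12a2, Abcc8 and Abcc9, were chosen after their values were seen. Alternatives were quantile normalization, median centring, no dim genes, another variance model, array weights, probe set means, the sample number as a block, other dim limits and left-out arrays.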

Additional observations from a re-analysis of the deposited data

How the results depend on the processing

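Over all genes limma called 869 and among the potassium channel genes 3. Array weights gave 1987 and 7. Leaving out 1 array, or both arrays of 1 number, gave 0 to 2089 calls over all genes and 0 to 6 among the channel genes. The high end came without BEGM array 1 (2089 and 6). With a single array left out, calls fell to 192 (BEGM 2), 544 (BEGM 3), 170 (EpiX 1), 101 (EpiX 2) and 418 (EpiX 3). They fell to 0 without both arrays of number 2, where 1582 genes and 5 channel genes had an unadjusted p under 0.05. Kcnj15 was called in each of the 6 fits that left out 1 array.

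The sample number as a replicate block gave 1252 calls, 4 of them channel genes, and Kcnip3 (adjusted p = 0.0141) and the pump subunit Atp1b1 (0.0223) then passed, while Orai1 did not (0.0691). As a random block it gave 1212 and 5, with Kcnip3 (0.0376) and Kcnmb4 (0.0484) added. In the check of this pairing BEGM array 2 correlated best with EpiX array 3 (0.12), not with its own number.

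Subfamily medians were close to 0, and several changed with the scaling. Centring moved them to 0.12 for the voltage-gated pores, 0.14 for silent subunits, 0.16 for Kcnh, 0.15 for voltage-gated auxiliary subunits, 0.16 for Kcnj and 0.04 for Kcnmb. Without the dimmest 25% of genes they were 0.19 for Kcnh, 0.46 for Kcnj and -0.31 for Kcnmb. With arrays left out the voltage-gated pore median ranged from -0.08 to 0.06 and the Kcnmb median from -0.21 to -0.06. The counts above the limit in BEGM and EpiX were 4 and 6 at the 50th percentile, 70 and 70 at the 10th, 15 and 14 at the negative control median, and 3 and 5 at the negative control 90th percentile, a limit chosen after seeing the data.

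The sign turned for Kcne3 at 0.08 and Kcnt1 at 0.08 with quantile normalization, for Kcne3 at 0.08, Kcnt1 at 0.09 and Kcnh3 at 0.03 with centring, and for Kcnmb2 at -0.04 with array weights. With arrays left out the difference ranged from -0.32 to 0.16 for Kcne3, -0.07 to 0.22 for Kcng2, -0.29 to 0.26 for Kcnmb2, -0.08 to 1.53 for Kcnn4, -0.83 to 0.18 for Kcnq5 and -0.38 to 0.34 for Kcnt1. The cause of these changes was not tested.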

Other observations

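Channel genes that lie beside each other in the genome were also compared. In the RefSeq gene order 10 pairs of measured potassium channel genes are direct neighbours. Of these pairs, 2 held a called gene and 0 held 2 called genes. Kcnj15 differed by 4.98 and its neighbour Kcnj6, a G protein-opened inward rectifier, by -0.03. Kcnk5 differed by 1.09 and its neighbour Kcnk16, another tandem pore channel, by -0.32. Kcnj6 and Kcnk16 had means over the 6 arrays of 3.61 and 4.08, both below the dim limit of 4.50 and the negative control median of 5.24. Over all genes 5.78% were called by limma. With neighbours this dim, these 2 pairs cannot show whether neighbouring channel genes share a call.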
